A study of Mus musculus with 6 samples.

Results

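Levels of collided ribosomes were described on 9 genes of protein folding in the endoplasmic reticulum (ER) and of the unfolded protein response, out of 8941 genes with a value in mouse liver. The genes were chosen by name from a list of 10: the chaperones Hspa5, Hyou1, Sdf2l1 and Calr, the thiol oxidoreductases Pdia3, Pdia4 and Pdia6, the stress-induced ER protein Creld2 and the transcription factor Xbp1, with Hsp90b1 as the only listed gene that was not analysed here. The measure was the disome footprint, the stretch of messenger RNA that stays protected from nuclease when a ribosome runs into the one ahead of it. Livers came from male C57BL/6JRj mice, 11 to 12 weeks old, entrained to 12 h light and 12 h dark for 2 weeks and killed under the same cycle. No group carried a mutation, transgene or drug given to the animal, and cycloheximide, which halts elongating ribosomes, was present in the lysis buffer of every sample. Groups were zeitgeber time 0 (ZT0, lights on), ZT2 and ZT12 (lights off), with 2 libraries each. Lysates of 2 mice were pooled per library, so n counts libraries, and variation between single animals was not seen.

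Secretory proteins fold in the ER, and hepatocytes export most plasma proteins through it. When unfolded proteins accumulate there, membrane sensors start the unfolded protein response: ATF6 is cleaved to an active factor, PERK slows translation, and IRE1 splices Xbp1 messenger RNA so that it encodes a strong activator of chaperone genes. The protein made from unspliced Xbp1 contains a known arrest sequence near its C terminus that halts the ribosome and keeps the messenger RNA at the ER membrane, where IRE1 can reach it.

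Many chaperone promoters carry the ER stress response element, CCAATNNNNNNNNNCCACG, which NF-Y and ATF6 or spliced XBP1 are known to bind. RefSeq promoter windows of build GRCm38.p6, each from 250 bases before to 50 bases after a gene start, were matched by symbol for 8 of the 9 genes. A search of both strands found the element in 4 of the 8, Hspa5, Calr, Pdia6 and Creld2, and in 39 of all 32851 windows (0.119%). The sequence upstream of Hspa5 is shown because this gene had the smallest adjusted p of the 9 over the time points. It is chr2:34771840-34772089, plus strand, and ends at the base before the gene start, with the element in capitals 46 bases upstream of the start.
Hspa5: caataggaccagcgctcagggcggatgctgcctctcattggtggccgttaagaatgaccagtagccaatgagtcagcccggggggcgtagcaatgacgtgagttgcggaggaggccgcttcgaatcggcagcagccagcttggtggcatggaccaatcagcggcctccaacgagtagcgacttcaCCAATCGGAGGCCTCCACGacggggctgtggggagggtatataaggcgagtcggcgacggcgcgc

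The other 3 elements are shown with up to 25 bases on either side, in capitals and 5′ to 3′ on the strand of the gene, so that the spacing of their parts can be compared. For Pdia6 (chr12:17266466-17266534, plus strand) the element lies on the strand of the gene, and for Calr (chr8:84847050-84847118, minus strand) and Creld2 (chr15:88819495-88819563, plus strand) on the opposite strand, where it reads in reverse complement. They end 79 bases (Pdia6), 143 bases (Calr) and 107 bases (Creld2) before the start.
Pdia6: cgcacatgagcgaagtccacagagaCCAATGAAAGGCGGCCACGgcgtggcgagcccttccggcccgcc
Calr: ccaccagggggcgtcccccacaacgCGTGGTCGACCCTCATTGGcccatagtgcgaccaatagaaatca
Creld2: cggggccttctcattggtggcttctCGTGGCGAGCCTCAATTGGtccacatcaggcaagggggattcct

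With at most 1 of the 10 fixed letters changed, a search added after the exact one, Pdia3 and Pdia4 also matched, which made 6 of 8 against 494 of all 32851 windows (1.504%). Counted from 1 at the 5′ end of the element, the Pdia3 site carries G19A and the Pdia4 site G19T. The Pdia3 window is chr2:121413848-121413901, plus strand, and the Pdia4 window chr6:47813577-47813645, minus strand, with the site of Pdia4 on the opposite strand. The capitals mark these near matches.
Pdia3: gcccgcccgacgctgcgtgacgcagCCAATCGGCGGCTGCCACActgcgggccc
Pdia4: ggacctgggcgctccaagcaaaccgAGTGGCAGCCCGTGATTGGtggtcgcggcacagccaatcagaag

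Sdf2l1 and Xbp1 had no match under either search. The sequence before Sdf2l1 (chr16:17132384-17132633, minus strand) is shown because this gene had the largest change of the 9. It holds 3 copies of the pentamer CCAAT in either orientation, in capitals, while the 250 bases before Xbp1 hold none (0 copies). The other matched genes had 4 (Hspa5), 3 (Pdia4 and Creld2) or 2 copies (Pdia3, Pdia6 and Calr). The share over all windows was not counted, and a link with the size of the change was not tested.
Sdf2l1: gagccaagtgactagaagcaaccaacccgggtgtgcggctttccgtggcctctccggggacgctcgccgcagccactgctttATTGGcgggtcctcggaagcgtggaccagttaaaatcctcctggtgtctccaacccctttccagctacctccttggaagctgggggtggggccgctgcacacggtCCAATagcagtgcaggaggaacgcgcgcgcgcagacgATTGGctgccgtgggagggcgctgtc

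Neither of the other elements of this response that were searched for was found in these 8 windows. The ER stress response element II, ATTGG and CCACG with any 1 base between them, was in 0.0365% of all windows, and the unfolded protein response element, TGACGTGG, in 0.676%, each in 0 of the 8. The E-box CACGTG, bound by the clock factors BMAL1 and CLOCK, was in 7.15% of all windows and in 1 of the 8, that of Calr. These matches describe letters in a window and are not evidence of binding.

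Libraries held 6346853 to 12323603 reads, recovered from the steps in the deposited RPKM (reads per kilobase, scaled by library), with the deepest at ZT12. The ZT2 libraries stood apart, with 97 and 250 genes at 0 against 4 to 52 in the other libraries, and their replicate SD over all tested genes was 0.53 on the log2 scale against 0.25 at ZT0 and 0.35 at ZT12. None of the 9 genes was at 0 in any library (0 of 9), and all 9 passed the filter of a mean of at least 1 RPKM, which left 8355 genes for testing. The tables carry no symbols, so the liver label was not checked against marker genes, and neither cells of other types nor other genes of the pathway could be counted.

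The 9 genes covered a wide range of disome levels. Calr had the highest mean, 727 RPKM over the 6 libraries, rank 179 of 8941 genes, and Creld2 the lowest, 17.9 RPKM, rank 2905. In order of mean level at ZT0 they were Calr, Hspa5, Pdia6, Xbp1, Pdia3, Pdia4, Hyou1, Sdf2l1 and Creld2, and each neighbour was separate from the next in both libraries except Pdia6 and Xbp1, whose values overlapped. The same order held at ZT2. At ZT12 Xbp1 stood above Pdia6 and overlapped Hspa5, and Sdf2l1 dropped below Creld2 to the last place. In ZT12 replicate 2 these last genes were close, at 9.77 RPKM (Sdf2l1) and 9.87 RPKM (Creld2). Their 95% exact Poisson intervals there overlapped (7.75 to 12.2 and 8.24 to 11.7 RPKM). Reads per library were 1349 to 9682 for 7 genes, but only 75 to 202 for Sdf2l1 and 128 to 184 for Creld2.

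Every gene of the set had its lowest mean disome level at ZT12. On the deposited scale, both ZT12 libraries of all 9 lay below all 4 libraries of ZT0 and ZT2. That was the case for 12.9% of all tested genes. For Xbp1 it rested on 271.3 RPKM in ZT12 replicate 2 against 272.3 RPKM in ZT2 replicate 2. Relative to ZT0, the mean RPKM (ZT12) was 0.266 times for Sdf2l1, 0.771 times for Xbp1 and between 0.476 and 0.629 times for the other 7. The summed level of the 9 genes was 2443 and 2719 RPKM (ZT0), 2444 and 2847 RPKM (ZT2), and 1409.6 and 1424 RPKM (ZT12). Between ZT0 and ZT2 none of the 9 passed the test (0 of 9), as few genes did at all (0.0239% of all tested genes). With voom 0 of 9 passed, against 0.108%, and 1 of 9 had an unadjusted limma p under 0.05, against 13.7%.

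**Figure D1:**
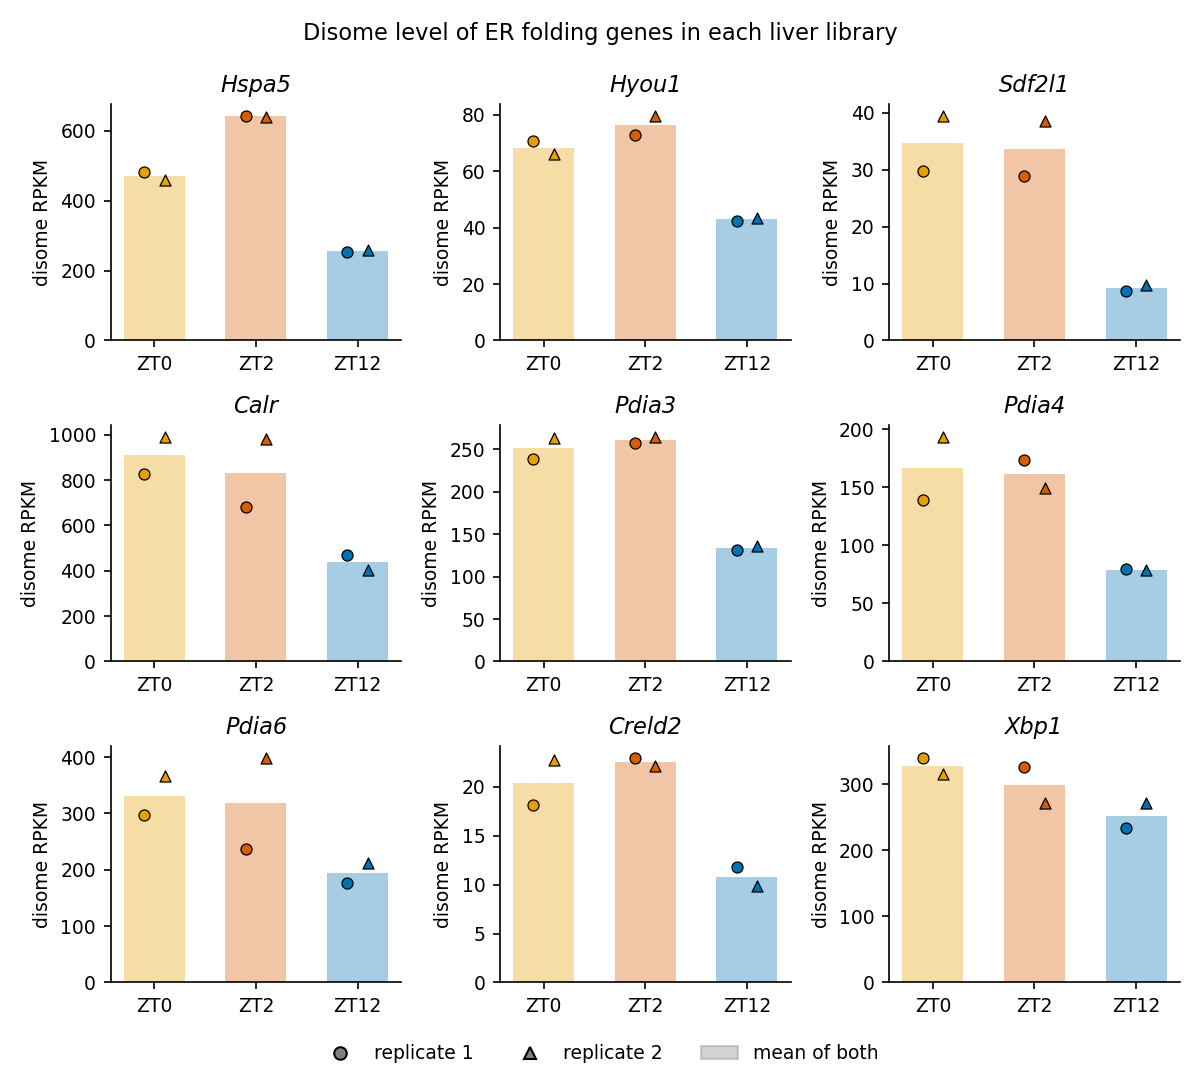
Disome level (RPKM, linear axis from 0, own scale per panel) of each gene at ZT0, ZT2 and ZT12; the circle is replicate 1, the triangle replicate 2 and the bar their mean (n = 2). In all 9 panels both ZT12 points lie below the 4 others, by least for Xbp1. In the Hspa5 and Hyou1 panels both ZT2 points lie above all others.

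The chaperone system of BiP was followed first. Hspa5 (ENSMUSG00000026864) encodes BiP, the Hsp70 chaperone of the ER lumen, which binds unfolded chains and holds the stress sensors inactive. Hspa5 stood at 482 and 461 RPKM (ZT0), 644 and 639 RPKM (ZT2), and 255 and 259 RPKM (ZT12). The replicates were close at each time point and no groups overlapped, with ZT2 the highest and ZT12 the lowest. Hspa5 fell at ZT12 to 0.545 times its ZT0 mean. The log2 change was -0.87 ± 0.14 (SE, n = 2 per time point), with an adjusted limma p of 0.046. SEs of log2 changes are limma's, from a variance shared by the time points and drawn toward that of other genes. Against ZT2 the Hspa5 level was 0.400 times, a log2 change of -1.32 ± 0.14 (SE) at an adjusted limma p of 0.012. The 1.36-fold higher level at ZT2 than at ZT0 had a log2 change of 0.44 ± 0.14 (SE), with a 95% interval of 0.11 to 0.78, and did not pass the test (adjusted limma p of 0.28).

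Hyou1 (ENSMUSG00000032115) encodes a large Hsp70-related protein that exchanges nucleotide on BiP. It had 70.6 and 66.0 RPKM (ZT0), 72.9 and 79.7 RPKM (ZT2), and 42.4 and 43.4 RPKM (ZT12). The ZT12 pair was low and tight, and the ZT2 pair lay just above the ZT0 pair. The log2 change from ZT0 to ZT12 was -0.66 ± 0.17 (SE) and from ZT2 to ZT12 -0.81 ± 0.17 (SE), with adjusted limma p of 0.15 and 0.061, so that neither passed.

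Sdf2l1 (ENSMUSG00000022769), an ER-resident protein that works with BiP and its J-domain partners, had the largest change of the set. Its levels were 29.8 and 39.5 RPKM (ZT0), 28.8 and 38.5 RPKM (ZT2), and 8.64 and 9.77 RPKM (ZT12). In both ZT0 and ZT2 replicate 2 was the higher library, and all 4 stood well above the ZT12 pair. Sdf2l1 fell 3.76-fold from ZT0 to ZT12 (log2 change of -1.79 ± 0.25, SE, adjusted limma p of 0.025), and 3.66-fold from ZT2 (log2 change of -1.75 ± 0.25, SE, adjusted limma p of 0.023). Its ZT12 values rested on 75 and 80 reads, with 95% exact Poisson intervals of 6.79 to 10.8 and 7.75 to 12.2 RPKM. The lowest bound among the other 4 libraries was 23.9 RPKM. These intervals cover counting error only.

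Calreticulin and its partner oxidoreductase work on newly made glycoproteins. Calr (ENSMUSG00000003814) encodes calreticulin, a calcium-binding lectin, and had 828 and 992 RPKM (ZT0), 683 and 983 RPKM (ZT2), and 471 and 404 RPKM (ZT12). The replicates differed widely at ZT2, yet the lower of them was above both ZT12 libraries. The log2 change from ZT0 to ZT12 was -1.05 ± 0.22 (SE) and from ZT2 to ZT12 -0.91 ± 0.22 (SE), and neither passed, at adjusted limma p of 0.087 and 0.091.

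Pdia3 (ENSMUSG00000027248) encodes ERp57, which forms disulfide bonds in glycoproteins held by calreticulin or calnexin. It had 238 and 264 RPKM (ZT0), 257 and 265 RPKM (ZT2), and 132 and 136 RPKM (ZT12). ZT0 and ZT2 overlapped, and ZT12 was lower by a similar margin against each. Pdia3 fell from ZT2 to ZT12 to 0.513 times, a log2 change of -0.96 ± 0.15 (SE) with an adjusted limma p of 0.031. From ZT0 to ZT12 the log2 change was -0.90 ± 0.15 (SE), and the adjusted limma p of 0.052 just missed the threshold.

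Pdia4 (ENSMUSG00000025823) and Pdia6 (ENSMUSG00000020571) encode further disulfide isomerases, ERp72 and P5, that are found in complexes with BiP. Pdia4 had 139 and 194 RPKM (ZT0), 173 and 149 RPKM (ZT2), and 79.4 and 78.6 RPKM (ZT12). Its libraries scattered in the light phase and were close together at ZT12. The log2 change was -1.04 ± 0.20 (SE) against ZT0 and -1.01 ± 0.20 (SE) against ZT2, at adjusted limma p of 0.074 and 0.059. Pdia6 had 297 and 366 RPKM (ZT0), 237 and 399 RPKM (ZT2), and 176 and 212 RPKM (ZT12). Its replicate 2 was higher at every time point, and at ZT2 by 1.69-fold, the widest replicate gap of the set. The log2 change was -0.76 ± 0.27 (SE) against ZT0 and -0.66 ± 0.27 (SE) against ZT2, with adjusted limma p of 0.26 and 0.24.

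Creld2 (ENSMUSG00000023272) encodes a small ER protein with EGF-like domains that is known to be induced by ER stress. It had 18.1 and 22.7 RPKM (ZT0), 23.0 and 22.1 RPKM (ZT2), and 11.8 and 9.87 RPKM (ZT12). The ZT0 pair spanned the ZT2 pair in part, and the ZT12 pair was separate. The log2 change was -0.85 ± 0.23 (SE) against ZT0 and -0.998 ± 0.23 (SE) against ZT2, at adjusted limma p of 0.15 and 0.082.

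Xbp1 (ENSMUSG00000020484) was the gene of the set whose disome level varied least with time. It had 340.4 and 315 RPKM (ZT0), 326 and 272.3 RPKM (ZT2), and 234 and 271.3 RPKM (ZT12). The ZT12 libraries were the lowest, but the upper ZT12 value and the lower ZT2 value nearly met. The log2 change from ZT0 to ZT12 was -0.38 ± 0.17 (SE), with a 95% interval of -0.78 to 0.02 and an adjusted limma p of 0.37. From ZT2 to ZT12 it was -0.24 ± 0.17 (SE), with an interval of -0.64 to 0.16 and an adjusted limma p of 0.49. A difference between Xbp1 and the other genes was not tested. Per kilobase, the ratio of Hspa5 to Xbp1 RPKM was 1.42 and 1.46 in the ZT0 libraries, 1.98 and 2.35 in those of ZT2, and 1.09 and 0.954 in those of ZT12. The tables give 1 value per gene, so reads at the arrest sequence could not be set apart from reads elsewhere on Xbp1, nor the spliced from the unspliced form. The length recovered for Xbp1 from the RPKM steps was 848 nucleotides, not a multiple of 3, whereas the other 8 lengths (663 to 2997) were multiples of 3, as were 95.2% of all genes.

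**Figure D2:**
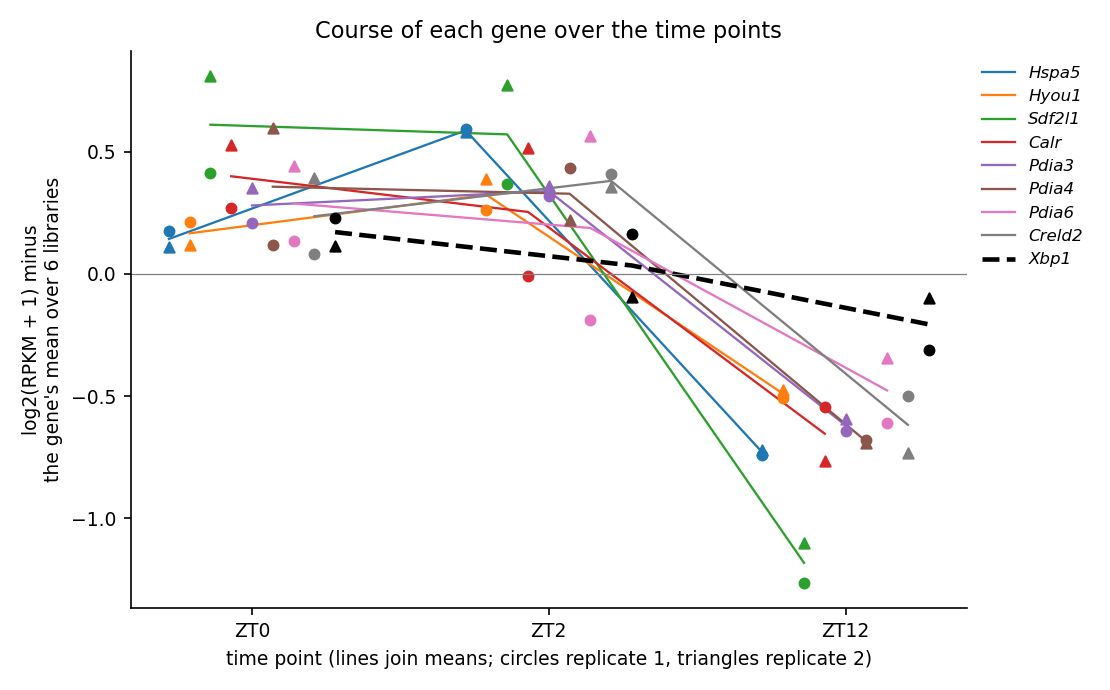
Log2(RPKM + 1) of each gene minus its own mean over the 6 libraries, by time point; circles are replicate 1, triangles replicate 2, and lines join the means (n = 2). The lines lie near each other at ZT0 and ZT2 and drop at ZT12, most for Sdf2l1 and least for Xbp1 (dashed).

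The first comparison asked how the disome level differed between lights on and lights off. Hspa5 and Sdf2l1 passed the test, both lower at ZT12, which is 2 of 9 genes where 0.946% of all 8355 tested genes passed and 0.551% passed and were lower. All 9 genes were lower at ZT12 with no overlap between libraries, as were 27.8% of tested genes, and 0 of 9 were higher with no overlap, against 26.6%. By the mean alone 50.8% of tested genes were lower. The median log2 change was -0.87 over the 9 genes and -0.01 over all tested genes, and 4.67% of tested genes had a change below the median of the 9. Before adjustment 8 of the 9, all but Xbp1, had a limma p under 0.05, against 14.5% of tested genes. At a threshold of 0.1 on the adjusted p, 5 of 9 passed, against 2.14%, and with voom on the recovered reads 5 of 9 passed, against 3.39%. The call of Hspa5 was lost without either ZT0 library and without either ZT12 library, at adjusted limma p of 0.18 to 0.42, as was that of Sdf2l1, at 0.13 to 0.32; over all 18 alternatives the ranges were 0.0086 to 0.42 and 0.0045 to 0.32. Without the variance trend both missed, at adjusted limma p of 0.16 and 0.059. Hspa5 alone also missed with libraries scaled to the same total (0.066), quantile normalization (0.064), a pseudocount of 0.1 RPKM (0.056) and a robust prior (0.051), and kept its call in 8 of 18 alternatives against 13 of 18 for Sdf2l1.

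The second comparison set ZT12 against ZT2 and shares the ZT12 libraries with the first. Hspa5, Pdia3 and Sdf2l1 passed, all lower at ZT12, which is 3 of 9 where 2.06% of tested genes passed and 0.993% passed and were lower. All 9 were again lower with no overlap on the deposited scale, Xbp1 only just, against 22.3% of tested genes. Of tested genes, 23.6% were higher in that way and 47.7% lower by the mean. An unadjusted limma p under 0.05 was found for 8 of 9, against 19.2%. At a threshold of 0.1 on the adjusted p 7 of 9 passed, against 5.06%, and with voom 7 of 9, against 4.26%. The median log2 change was -0.96 over the 9 genes and 0.03 over all tested genes. The call of Hspa5 was lost without ZT12 replicate 1 or ZT12 replicate 2, at adjusted limma p of 0.063 and 0.12 (range over 18 alternatives 0.00057 to 0.12). The calls of Pdia3 and Sdf2l1 were lost when any single library of ZT0 or ZT12 was left out, at adjusted limma p of 0.10 to 0.20 for Pdia3 (range 0.0063 to 0.20) and 0.067 to 0.16 for Sdf2l1 (range 0.0065 to 0.16). With only the 4 libraries compared both also missed, at adjusted limma p of 0.10 and 0.069, as with array weights, at 0.089 and 0.055, and Pdia3 missed without the variance trend, at 0.091. Pdia3 kept its call in 10 of 18 alternatives, Sdf2l1 in 12 and Hspa5 in 16.

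**Figure D3:**
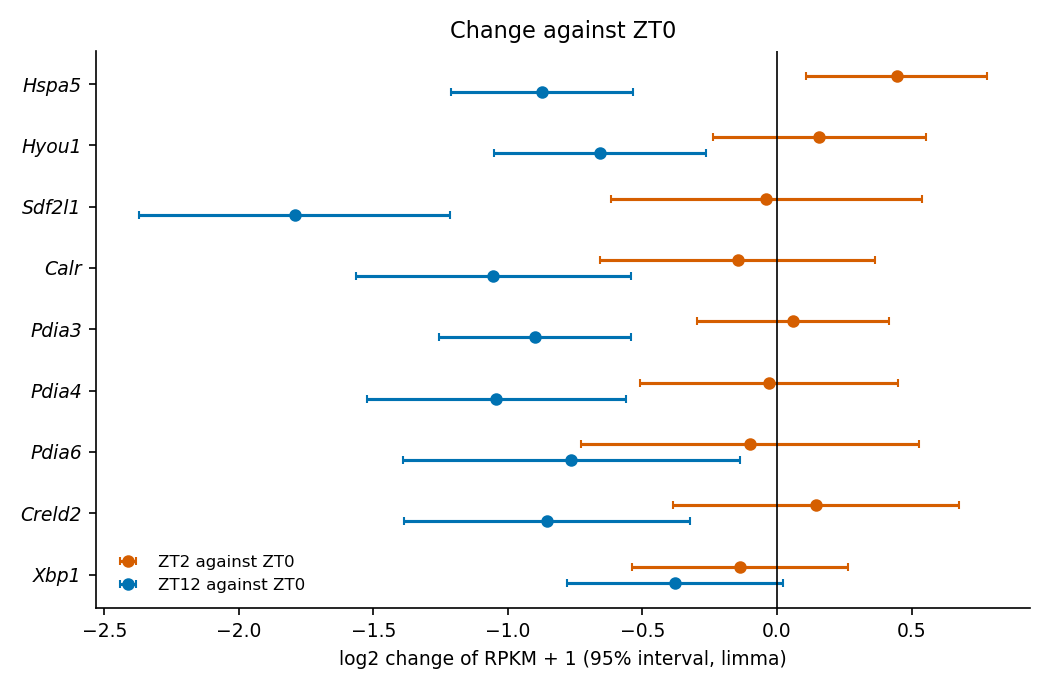
Log2 change of RPKM + 1 against ZT0 for each gene at ZT2 (orange) and ZT12 (blue), with 95% intervals from limma; both sets share the ZT0 libraries. All ZT12 points lie below 0 and their intervals exclude 0 before adjustment except that of Xbp1, while the ZT2 intervals include 0 except that of Hspa5.

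In the 2 h after lights on, none of the 9 genes passed limma's test (0 of 9, against 0.0239% of all tested genes), nor did any with voom (0 of 9, against 0.108%). At a threshold of 0.1 on the adjusted p 0 of 9 passed too, against 0.0958%. Before adjustment only Hspa5, 1 of 9, had a limma p under 0.05, where 13.7% of tested genes had one. Hspa5 and Hyou1 were higher at ZT2 with no overlap, 2 of 9 against 21.5% of tested genes, and 0 of 9 were lower with no overlap, against 24.9%. The 95% intervals of the log2 change reached from -0.73 to 0.53 for Pdia6, the widest, and from -0.30 to 0.41 for Pdia3, so changes of that size remained possible. The median log2 change was -0.03 over the 9 genes and -0.04 over all tested genes, of which 53.6% were lower at ZT2 by the mean.

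**Figure D4:**
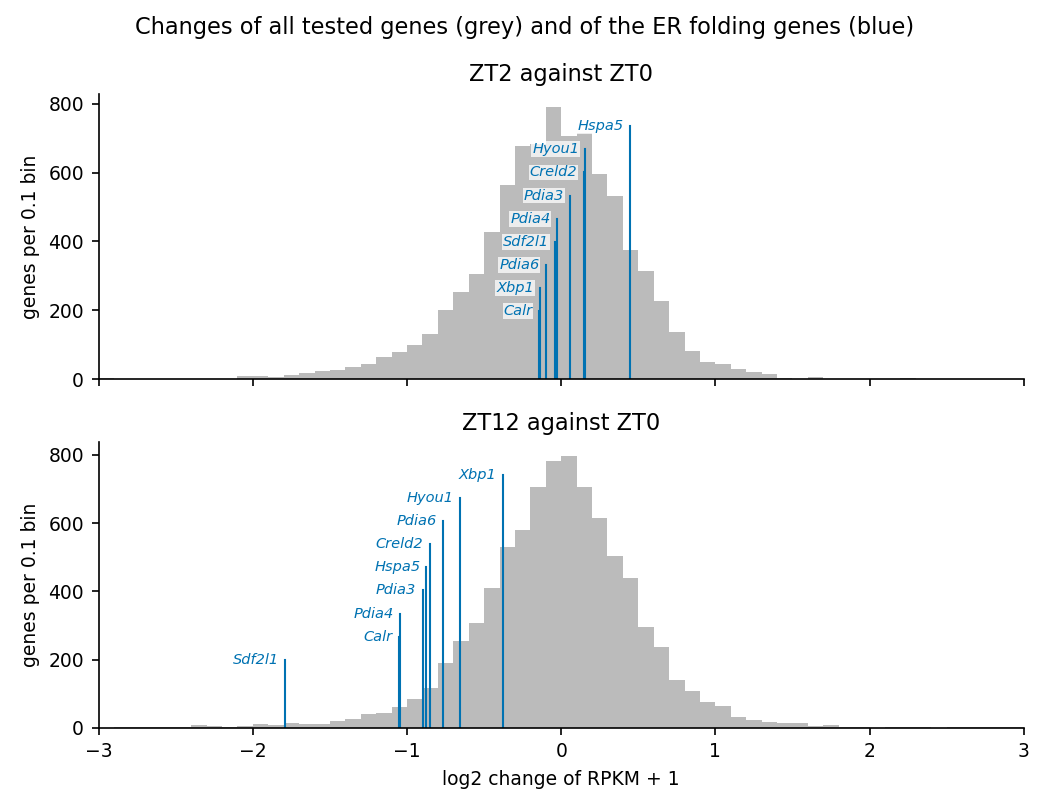
Number of tested genes (grey) per bin of 0.1 in log2 change, for ZT2 against ZT0 (top) and ZT12 against ZT0 (bottom), with the 9 genes as blue lines of arbitrary height; changes beyond 3 in either direction are not drawn. At ZT2 the 9 genes spread around the centre, and at ZT12 all 9 lie to its left, from -0.38 for Xbp1 to -1.79 for Sdf2l1.

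Across the 3 time points together, limma's moderated F test passed Hspa5 (adjusted p of 0.019), Sdf2l1 (adjusted p of 0.027) and Pdia3 (adjusted p of 0.045), 3 of 9 genes where 1.26% of tested genes passed. At a threshold of 0.1 on the adjusted p 5 of 9 passed, against 3.65%, and with voom 6 of 9, against 4.3%. Before adjustment 8 of 9, all but Xbp1, had an F test p under 0.05, against 18.6% of tested genes. When any single library of ZT0 or ZT12 was left out, the F test passed 0 of the 9 and 5 to 25 of all genes. Without ZT2 replicate 1 it passed 7 of the 9, but also 612 of all genes against 105 with every library, and without ZT2 replicate 2 it passed 5 of the 9 and 383 of all genes.

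As a share of all reads, the 9 genes took 0.367% ± 0.028 (SD, n = 2) at ZT0, 0.387% ± 0.039 (SD, n = 2) at ZT2 and 0.213% ± 0.0029 (SD, n = 2) at ZT12. The lowest share was 0.211% in ZT12 replicate 2 (95% exact Clopper-Pearson interval 0.208 to 0.213) and the highest 0.415% in ZT2 replicate 2 (0.410 to 0.419). The summed share at ZT12 was thus lower relative to the total too, and not only after the scaling of the deposited values. Library by library this did not hold for every gene. Xbp1 took 2840 of 11905096 reads in ZT12 replicate 2 and 1780 of 7845916 in ZT2 replicate 2, the larger share at ZT12.

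Replicates often differed by more than the counting error. Of 27 pairs of libraries, 9 genes at 3 time points, 17 differed by over 2 counting standard errors. The largest such gaps were at ZT2, where Calr was 1.44-fold and Pdia6 1.69-fold higher in replicate 2, against counting standard errors of 0.025 and 0.040 on the log2 scale. Pdia3, Pdia6, Calr and Sdf2l1 were higher in replicate 2 at both ZT0 and ZT2, while Xbp1 and Hspa5 were lower in replicate 2 at both. At ZT12 this turned for Calr, which was lower in replicate 2, and for Xbp1 and Hspa5, which were higher. For Sdf2l1 and Creld2, the genes with fewest reads, counting standard errors were 0.16 to 0.23.

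Correlations over the 6 libraries describe how alike the courses of the genes were. Pearson's r of log2(RPKM + 1) was 0.72 to 0.99 in the 28 pairs without Xbp1, with a median of 0.92. The 8 pairs with Xbp1 had r of 0.48 to 0.75, with a median of 0.67. The ranges overlapped: the lowest pair without Xbp1 was Pdia6 with Hspa5 (0.72), below Xbp1 with Pdia4 (0.75). Pairs among all other genes were not computed. These values describe 6 libraries at 3 time points, in which the genes share the scaling of each library. Among 3917 other genes at or above 10 RPKM on average, the course most like the mean of the 9 genes was that of ENSMUSG00000031591 (r of 0.99), whose means were 26.1 RPKM (ZT0), 27.1 RPKM (ZT2) and 20.6 RPKM (ZT12). ENSMUSG00000067279 came next (r of 0.99), with 194, 179 and 38.3 RPKM. Picked for likeness to a course that is lowest at ZT12, each of them had its lowest mean there. The gene most like Xbp1 reached an r of 0.99.

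Transcript amounts and single-ribosome footprints were not analysed here, so a lower disome level could not be divided into less messenger RNA, less translation or fewer collisions per translating ribosome. In whole liver, fewer cells of a type and less RNA per cell cannot be told apart either.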

How the data were processed

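Disome libraries were made, per the labels' protocols, from liver lysates pooled from 2 mice and digested with 650 U RNase I for 45 min. The authors deposited RPKM values for 8941 Ensembl identifiers per library, without symbols. The submitters' processing notes name CASAVA 1.82, Bowtie2 2.3.0, STAR, cutadapt, edgeR and StringTie and the builds mm10 and GRCm38.p2. What each did, and the annotation and filter on genes, is not given in the sources used here. The 9 genes were found by the identifiers listed for their symbols, and Hsp90b1 was not analysed here. The reference gene table pairs no symbols with these identifiers (0 matched), so the wider lists of pathway and cell type marker genes were not tested. The genes, lists and tests were chosen with earlier results of these data known.

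Whole reads were recovered for 8941 genes, to a relative tolerance of 5e-13, since values of a gene in different libraries were ratios of whole numbers times 1 constant per library. In 74 genes a shared factor was corrected through the length. Reads served for depth, shares and 1 alternative test. Testing used limma (version 3.58.1, R version 4.3.3) on log2(RPKM + 1). Genes averaging under 1 RPKM were left out, and 1 fit held the 6 libraries, with time point as the only factor, a variance trend and 3 residual degrees of freedom. Adjustment was by Benjamini and Hochberg over 8355 genes, with a threshold of 0.05. Log2 changes are on this scale, which understates changes of low genes, and ratios of levels are of mean RPKM. Each replicate is its own pool of livers, per the design text. SEs, intervals and p-values measure the spread between these pools, as 1 variance per gene over all time points. That variance is drawn toward the trend of other genes, so an SE is not the gene's own spread alone. The rule for names takes all 9 genes and those most like their mean course or that of Xbp1. Alternatives were the pseudocount, filter, scaling, variance prior, array weights, threshold, voom on recovered reads, a block for the replicate number, and fits on fewer libraries. The scripts were tested on simulated data, in which all genes of a time point had the same replicate spread. Of 50 genes changed 2-fold, 8 (ZT2 against ZT0), 3 (ZT12 against ZT0) and 5 (ZT12 against ZT2) passed. At 1.5-fold 0 of 50 passed in each comparison, and at 4-fold 43, 47 and 43 did. With the spread simulated, a gene that did not pass may thus still have changed 2-fold. For ZT2 against ZT0, limma's unadjusted intervals of all 9 genes stayed short of a 2-fold log2 change. Their lowest bound was -0.73 (Pdia6) and their highest 0.78 (Hspa5). Those of Xbp1 at ZT12 stayed short of it too, with a lowest bound of -0.78 against ZT0. For the other genes that did not pass at ZT12, the intervals included a 2-fold fall.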

Additional observations from a re-analysis of the deposited data

How the results depend on the processing

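All 9 genes stayed lower at ZT12 against ZT0 and against ZT2 in every alternative run (0 of 162 values reversed in each comparison). Most of these runs could not have reversed a value. The filter, variance prior, array weights, block and fit on 4 libraries left the log2 change as it was. Leaving out a library or changing the pseudocount could not reverse it either, since both ZT12 libraries lay below all others in all 9 genes. Only the scalings and voom could have done so. The number passing limma moved. For ZT12 against ZT0 the 2 genes became 3 with a pseudocount or filter of 5 RPKM, 1 (Hspa5 lost) with a pseudocount of 0.1 RPKM, scaling to the same total, quantile normalization or a robust prior, 0 without the variance trend, 6 with array weights, and 5 with voom, with only the 4 libraries compared or at an adjusted p of 0.1. For ZT12 against ZT2 the 3 became 5 with a filter at 5 RPKM (203 genes in all), 2 without the trend (Pdia3 lost), 1 (Hspa5 left) with array weights or only the 4 libraries, and 7 with voom or at an adjusted p of 0.1. For the F test the 3 became 0 without the trend, 2 with a pseudocount of 0.1 RPKM, the same total or a robust prior, 4 with array weights, 6 with voom and 5 at an adjusted p of 0.1. Leaving out each library gave 0 to 5, 0 to 6 and 0 to 7 genes, and 0 throughout for ZT2 against ZT0. Where 1 library of a time point was left, its spread was taken from the other time points. For these moves in the counts, the cause was not tested. Libraries with the same number did not deviate together (correlations of -0.076, -0.019 and 0.018), so no pairing was assumed. With a replicate block, 1 gene passed for ZT12 against ZT0 (Hspa5 missed, at an adjusted limma p of 0.090), 2 for ZT12 against ZT2 (Pdia3 missed, at 0.057), 2 by the F test and 0 for ZT2 against ZT0. In the order of ZT2 against ZT0, then ZT12 against ZT0, then ZT12 against ZT2 and last the F test, the counts over all genes of 2, 79, 172 and 105 were 2, 51, 113 and 76 with the block, 1, 32, 80 and 34 without the trend, 9, 283, 356 and 359 with voom, and 2, 414, 57 and 211 with array weights; they were 1, 282 and 39 with only the 4 libraries, 8, 179, 423 and 305 at an adjusted p of 0.1, and 0 to 248, 3 to 283, 5 to 597 and 5 to 612 in the fits that left out 1 library. A pseudocount of 0.1 RPKM gave 6 for ZT2 against ZT0, and a filter at 5 RPKM gave 124 for ZT12 against ZT0. For ZT2 against ZT0, 11 of 162 log2 changes reversed, none of which passed the test in any setting: with quantile normalization Pdia4 was at 0.014 and Sdf2l1 at 0.0047, and leaving out each library gave -0.014 to 0.13 for Pdia3, -0.27 to 0.21 for Pdia4, -0.48 to 0.28 for Pdia6, -0.41 to 0.12 for Calr, -0.24 to 0.16 for Sdf2l1 and -0.011 to 0.30 for Creld2. Depth limits Sdf2l1 and Creld2 most, with 75 to 202 reads per library.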
